A study of Mus musculus with 53 samples.

Results

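Complement components and receptors were followed in the lungs of mice that breathed cigarette smoke and of mice that stopped. The genes were the 9 listed complement genes C1qa, C1qb, C1qc, C4b, C2, Cfb, C3, C3ar1 and C5ar1, each read from the brightest of the probe sets annotated to it. Of the 9 genes, 7 had a probe set of their own and were tested among 15030 genes. C4b shared its probe set with C4a, so that the value is joint to both genes. C3 had no probe set in the annotation used here and was not analysed here.

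RNA of the small lung lobe of female C57BL/6 mice was hybridised to 53 Affymetrix mouse genome arrays, 1 per sample, in 9 groups. Nose-only exposure took 2 hours daily on 5 days of each week, either to 4% mainstream cigarette smoke or to forced air, the sham procedure. The 2-week groups (smoke, n = 6, and forced air, n = 6), the 12-week groups (smoke, n = 5, and forced air, n = 6) and the 24-week groups (smoke, n = 6, and forced air, n = 6) were compared at the same time point. In the cessation groups 12 weeks of smoke were followed by 12 weeks of forced air (n = 6) or of room air (n = 6), as the group labels have it, while the protocol gives sham exposure for all cessation mice. A further group was untreated (n = 6). All groups shared strain and sex, the labels name no transgene, and the labels used here do not give the age of the mice. Nothing in the labels says how mice were housed or which samples shared a litter or a day, so p-values measure the spread between these samples.

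Complement is a cascade of plasma and tissue proteins that marks microbes, dying cells and immune complexes for removal. C1q, built from the A, B and C chains, recognises targets and starts the classical pathway, which cleaves C4 and C2 into the convertase that cuts C3, while factor B forms the convertase of the alternative pathway. The small fragments released from C3 and C5 act on the receptors encoded by C3ar1 and C5ar1 on myeloid cells. Plasma complement is made mainly in the liver, but C1q is made mainly by macrophages and related cells, and factor B also by epithelial and myeloid cells.

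C1qb, C1qc and C1qa lie side by side on chromosome 4 with 0 other protein-coding genes starting between them, and Cfb and C2 are direct neighbours on chromosome 17. RefSeq promoter windows of GRCm38.p6 were found for 4 of the 7 tested genes, C1qb, C1qc, C3ar1 and C5ar1, in which 4 short motifs were searched on both strands. The 250 bases before the start are shown for C1qb, C1qc and C3ar1, because these 3 rose together under smoke. They are written 5′ to 3′ along the gene, which is on the minus strand in each case, with any motif match in capitals. The coordinates are chr4:136886201-136886450 for C1qb, chr4:136892915-136893164 for C1qc and chr6:122856158-122856407 for C3ar1.
C1qb: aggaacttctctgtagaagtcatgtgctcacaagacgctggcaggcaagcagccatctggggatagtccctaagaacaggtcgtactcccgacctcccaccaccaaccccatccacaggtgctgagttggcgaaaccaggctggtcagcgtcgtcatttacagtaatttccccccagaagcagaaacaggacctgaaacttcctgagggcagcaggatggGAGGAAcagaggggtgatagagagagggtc
C1qc: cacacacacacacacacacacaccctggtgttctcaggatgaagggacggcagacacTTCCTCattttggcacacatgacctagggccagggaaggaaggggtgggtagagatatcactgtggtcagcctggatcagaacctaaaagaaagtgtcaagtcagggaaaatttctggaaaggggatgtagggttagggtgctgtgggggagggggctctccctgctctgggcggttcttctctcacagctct
C3ar1: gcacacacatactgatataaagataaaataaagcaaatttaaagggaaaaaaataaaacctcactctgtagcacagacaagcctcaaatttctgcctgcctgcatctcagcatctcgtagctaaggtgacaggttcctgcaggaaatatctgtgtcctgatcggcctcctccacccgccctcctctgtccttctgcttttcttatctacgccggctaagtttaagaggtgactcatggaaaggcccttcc
The PU.1 core GAGGAA, a motif bound by a transcription factor of myeloid cells, was found once in the C1qb window, starting 30 bases before the start, and once on the other strand in the C1qc window, starting 193 bases before it. That motif was present in 28.3% of all 32851 promoter windows of 300 bases, and the C3ar1 and C5ar1 windows had no match. The kappaB-type motif GGGANTTCC (1.7% of windows) and the STAT-type motif TTCNNNGAA (8.3%) had no match in the 4 windows. The interferon-stimulated-type motif GAAANNGAA (8.6%) had a match in the C5ar1 window alone among the 4. The motifs did not overlap in the matches found, and a match is a description of the letters only.

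The deposited MAS5 signals had a trimmed mean of 150.0 on every array, and 67.5% to 76.2% of probe sets were called present. The RNA integrity measure, the 3′/5′ ratio of Gapdh, ran from 1.61 to 2.08 in forced air and from 1.54 to 1.71 in smoke at 2 weeks, from 1.58 to 2.42 and from 1.48 to 1.54 at 12 weeks, and from 1.46 to 1.53 and from 1.40 to 1.69 at 24 weeks. At 12 weeks these ranges did not overlap, and the ratio of actin ran from 1.83 to 2.62 in forced air and from 1.70 to 1.83 in smoke. The lung markers Sftpc, Scgb1a1, Ager and Foxj1 were present on every array, with median log2 differences between smoke and forced air of -0.18, -0.15 and 0.06 at 2, 12 and 24 weeks. The samples are bulk tissue, in which more cells of a type and more RNA per cell cannot be told apart.

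Under smoke 5 of the 7 tested genes rose at each of the 3 time points: the C1q chains C1qa, C1qb and C1qc, the factor B gene Cfb and the receptor gene C3ar1. C2 was not called at any time, and C5ar1 was lower at 2 weeks only among the 3 smoke comparisons. At 2 weeks 5 genes were called higher and 1 lower by limma at an adjusted p under 0.05, where 5.39% of all genes tested were called higher and 3.70% lower. At 12 weeks 5 were called higher and 0 lower, where 12.5% and 10.5% of all genes were so called, and at 24 weeks again 5 and 0, against 11.1% and 6.67%. The median log2 difference of the 7 genes was 0.69 at 2 weeks, 1.51 at 12 weeks and 1.04 at 24 weeks, while that of all genes tested was 0.002, -0.02 and -0.001. For the 5 genes that rose, every smoke array lay above every forced air array of the same week at all 3 time points. The share of all genes separated in this way was not counted, so how unusual it is cannot be judged here.

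**Figure D1:**
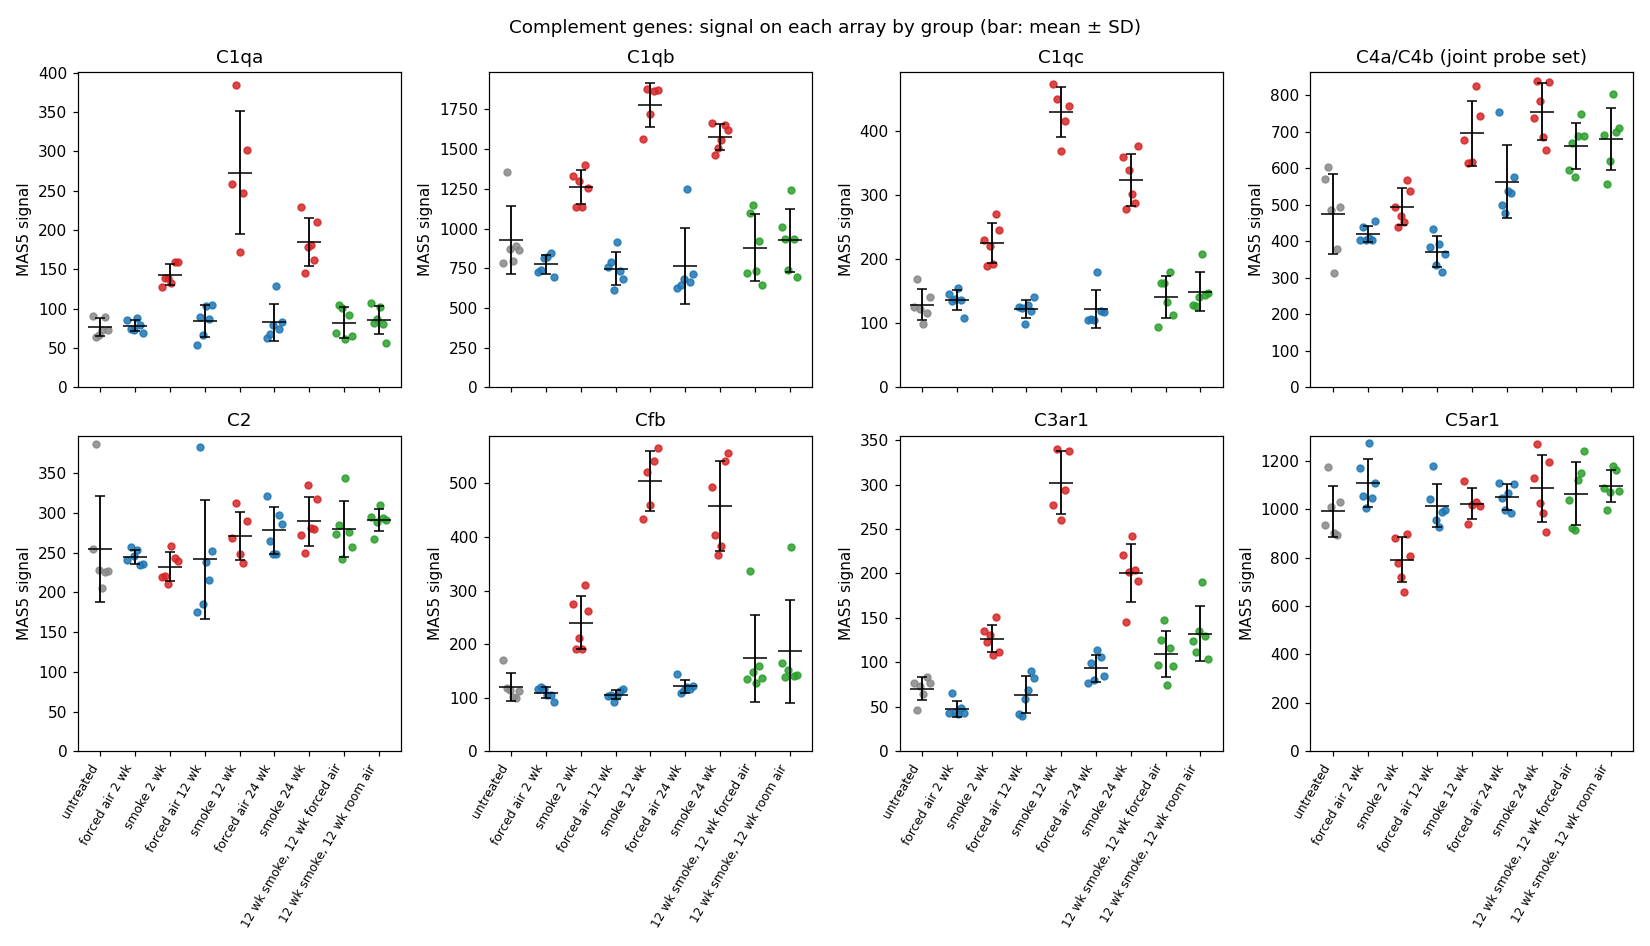
MAS5 signal (linear scale, from 0) of the 7 complement genes and the joint C4a/C4b probe set on each of the 53 arrays by group. Points are arrays, bars the mean ± SD. Grey is untreated, blue forced air, red smoke and green cessation. C1qa, C1qb, C1qc, Cfb and C3ar1 stand above forced air in all smoke groups, and 1 Cfb array in each cessation group, at 336.2 and 381.5, stands far above the other 5.

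The 3 chains of C1q, the recognition unit of the classical pathway, rose together. The C1qc signal was 108.8 at the lowest and 154.8 at the highest in forced air at 2 weeks, with a mean of 136.3, and ran from 190.0 over a median of 225.2 to 270.4 in smoke. At 12 weeks C1qc ran from 98.64 over a median of 124.4 to 140.9 in forced air, and the 5 smoke arrays had 472.8, 448.8, 368.7, 415.7 and 439.2. At 24 weeks it ran from 104.6 over 111.6 to 179.9 in forced air and from 278.1 over 320.1 to 375.7 in smoke. The groups did not overlap at any time, and the distance was widest at 12 weeks. The log2 difference for C1qc was 0.66 ± 0.12 (SE, adjusted p = 0.000103) at 2 weeks, 1.68 ± 0.13 (adjusted p = 1.29e-15) at 12 weeks and 1.31 ± 0.12 (adjusted p = 1.75e-12) at 24 weeks, which are folds of 1.58, 3.21 and 2.48.

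C1qa encodes the A chain. Its 12-week forced air arrays ran from 53.44 over a median of 88.21 to 104.6, and its 5 smoke arrays had 258.9, 384.3, 172.2, 247.2 and 302.0. Forced air ran from 69.57 over 77.02 to 88.01 at 2 weeks and from 62.53 over 76.86 to 129.2 at 24 weeks, and smoke from 128.1 over 139.1 to 159.5 and from 145.8 over 179.8 to 228.6. All smoke arrays were again the higher ones, and the smoke arrays at 12 weeks were spread more widely (SD 77.9) than those at 2 weeks (SD 13.4) and 24 weeks (SD 30.5). The folds were 1.68, 2.85 and 2.05, with log2 differences of 0.75 ± 0.14 (SE), 1.51 ± 0.15 and 1.04 ± 0.14 and adjusted p-values of 0.000218, 1.42e-11 and 1.45e-07.

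C1qb encodes the B chain. Its forced air medians were 776.5, 745.0 and 675.8 at 2, 12 and 24 weeks, with ranges of 693.3 to 846.4, 614.7 to 917.0 and 623.6 to 1247. Its smoke medians were 1278 (range 1136 to 1398), 1866 (the 5 arrays at 1563, 1877, 1721, 1866 and 1869) and 1590 (1463 to 1662). The highest forced air array, at 1247 at 24 weeks, lay below the lowest smoke array of that week at 1463, and the groups did not overlap at the other times either. The log2 differences were 0.69 ± 0.13 (SE, adjusted p = 2e-04), 1.24 ± 0.14 (adjusted p = 4.07e-10) and 1.07 ± 0.13 (adjusted p = 7.49e-09).

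C1qb has 3 probe sets, all present on all 53 arrays, and they differed in size but not in direction. At 12 weeks the log2 difference was 1.24 for the brightest (1437726_x_at), 1.46 for the next (1434366_x_at) and 2.00 for the dimmest (1417063_at). All 3 were called higher at each of the 3 time points in the fit over all 35615 kept probe sets. The smoke effect on C1qb at 12 weeks minus that at 2 weeks was not called with the brightest probe set (0.55 ± 0.19, adjusted p = 0.11), but was with the other 2, at 0.87 (adjusted p = 0.0202) and 1.36 (adjusted p = 7.92e-06). With the brightest it was called when only the compared groups were fitted (adjusted p = 0.00733).

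Across the 53 arrays the chains had Pearson correlations of log2 values of 0.93 for C1qb and C1qc, 0.93 for C1qa and C1qc (0.928) and 0.88 for C1qa and C1qb. After subtraction of the group means these were 0.71, 0.54 and 0.55. The arrays share their groups, so the first values largely restate the group differences.

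**Figure D2:**
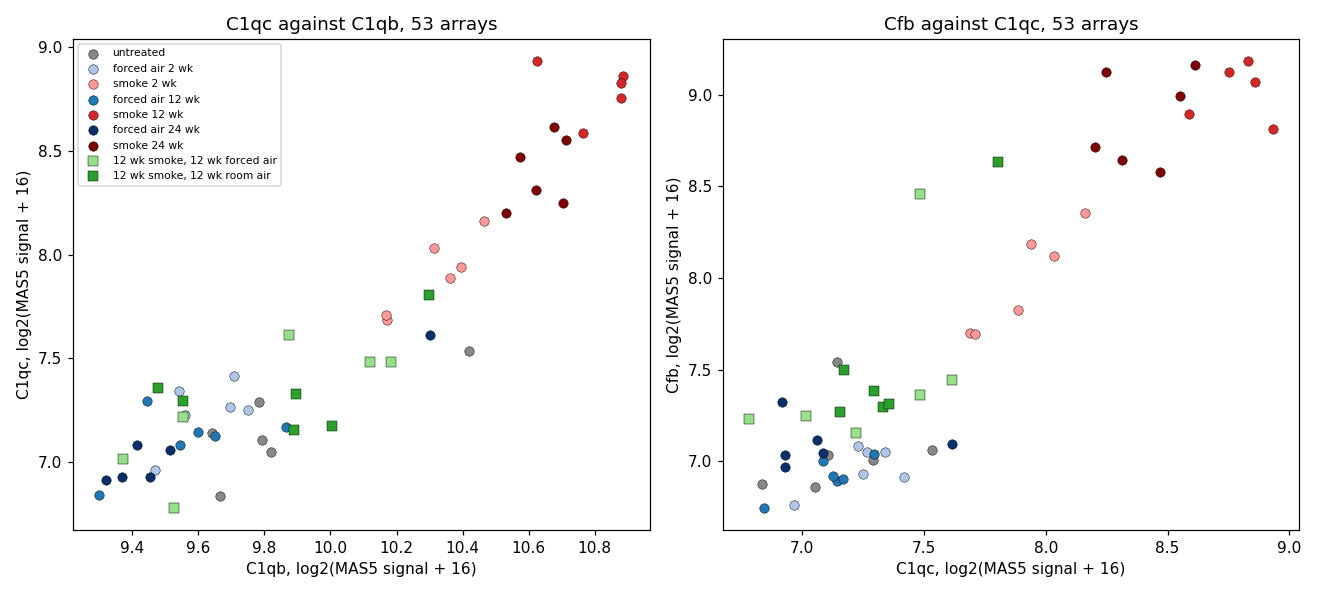
log2(MAS5 signal + 16) of C1qc against C1qb (left) and of Cfb against C1qc (right) on each of the 53 arrays. Circles are untreated, forced air and smoke arrays, squares the cessation groups. C1qb and C1qc line up (r = 0.93 over all arrays), and 2 cessation arrays, 1 in each group, lie higher in Cfb than the other arrays with like C1qc values.

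C4 and C2 follow C1q in the classical pathway. The joint C4a/C4b probe set (1418021_at) ran from 317.0 over a median of 375.0 to 435.0 in forced air at 12 weeks, and the 5 smoke arrays had 677.4, 613.6, 616.6, 826.4 and 742.4. These groups did not overlap, and the log2 difference was 0.87 ± 0.11 (SE, adjusted p = 1.83e-08 in the fit over probe sets), a fold of 1.83. At 24 weeks forced air ran from 478.4 over 535.1 to 753.9 and smoke from 648.7 over 760.2 to 837.8, which overlapped through 1 forced air array at 753.9. The 24-week difference was 0.42 ± 0.11 (SE, adjusted p = 0.00368). At 2 weeks forced air had a median of 407.4 (range 404.1 to 455.1) and smoke of 482.3 (440.0 to 568.9), and the difference of 0.22 was not called (adjusted p = 0.209). The smoke effect on this probe set was larger at 12 than at 2 weeks by 0.65 ± 0.15 (SE, adjusted p = 0.0163).

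C2 encodes the protease that joins C4 in the classical convertase. Its medians lay between 227.2 and 292.2 in all groups. At 12 weeks forced air ran from 175.9 to 382.8 and smoke from 236.9 to 312.1, and the groups overlapped at every time. The log2 differences were -0.07 (95% interval -0.29 to 0.15), 0.20 (-0.04 to 0.43) and 0.06 (-0.17 to 0.28) at 2, 12 and 24 weeks, with limma's adjusted p-values of 0.745, 0.232 and 0.779. These intervals, which are those of the brightest probe set with all arrays, do not reach a log2 difference of 0.5 in either direction. Without the forced air array at 382.8 the 12-week difference was 0.33 (adjusted p = 0.0145), so that the missing call at 12 weeks rests on that array. None of the 3 probe sets of C2 was called in the 3 smoke comparisons. One of them, 1416051_at, had 0.285 at 12 weeks (limma's adjusted p = 0.104 in the fit over probe sets). Its 95% interval of 0.039 to 0.53 does reach past 0.5.

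Cfb encodes factor B, the protease of the alternative pathway convertase, and it had the largest 24-week rise of the 7 genes, while at 12 weeks its rise and that of C3ar1 differed by less than their SE. Forced air ran from 92.53 over a median of 111.1 to 119.9 at 2 weeks, and smoke from 191.3 over 236.6 to 311.1. At 12 weeks forced air ran from 91.43 over 104.5 to 115.4, and the 5 smoke arrays had 433.2, 521.5, 459.8, 542.8 and 565.5. At 24 weeks forced air ran from 109.5 over 118.4 to 144.2 and smoke from 366.0 over 448.6 to 556.4. No smoke array came near a forced air array, and the lowest 12-week smoke value was above the highest 2-week one. The folds were 2.02, 4.29 and 3.41, with log2 differences of 1.01 ± 0.16 (SE, adjusted p = 1.2e-05), 2.10 ± 0.17 (adjusted p = 3.05e-14) and 1.77 ± 0.16 (adjusted p = 2.36e-12). C2, its direct neighbour on the chromosome, had a log2 difference of 0.20 at 12 weeks beside 2.10 for Cfb.

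C3ar1 encodes the receptor of the C3a fragment. At 2 weeks forced air ran from 41.41 over a median of 43.46 to 65.07 and smoke from 108.8 over a mean of 126.7 to 150.6. At 12 weeks forced air ran from 39.68 over 63.75 to 90.73, and the 5 smoke arrays had 277.5, 339.9, 260.6, 294.2 and 337.3. At 24 weeks forced air ran from 77.06 over 91.49 to 114.3 and smoke from 144.9 over 202.8 to 242.1. Smoke arrays were above forced air arrays throughout, but at 24 weeks the smoke values were lower and the forced air values higher than at 12 weeks. The log2 differences were 1.17 ± 0.14 (SE, adjusted p = 9.15e-09), 2.03 ± 0.15 (adjusted p = 3.24e-16) and 0.98 ± 0.14 (adjusted p = 2.5e-07), folds of 2.25, 4.09 and 1.98. The other probe sets of C3ar1, 1442082_at and 1419482_at, had 12-week differences of 1.95 and 1.74 and were called higher at all 3 time points.

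C5ar1 encodes the receptor of the C5a fragment and was the exception in direction. At 2 weeks forced air ran from 1003 over a median of 1081 to 1273 and smoke from 658.9 over 792.6 to 898.8, so that all 6 smoke arrays lay below all forced air arrays. The signal fell by 0.48 ± 0.08 on the log2 scale (SE, adjusted p = 7.98e-06), to a fold of 0.715. At 12 weeks the medians were 991.5 in forced air and 1017 in smoke, and at 24 weeks 1056 and 1078, with overlapping groups. The later log2 differences of 0.01 (95% interval -0.15 to 0.18) and 0.04 (-0.12 to 0.19) were not called. The fall was seen with 1 of the 2 probe sets of the gene. The other, 1422190_at, had a mean signal of 9.12, was present on 20 of 53 arrays and had a 2-week difference of -0.14 (adjusted p = 0.457), whereas the brightest, 1439902_at, had a mean signal of 1025 and was present on all 53. Which of these reads the C5ar1 transcript was not tested.

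**Figure D3:**
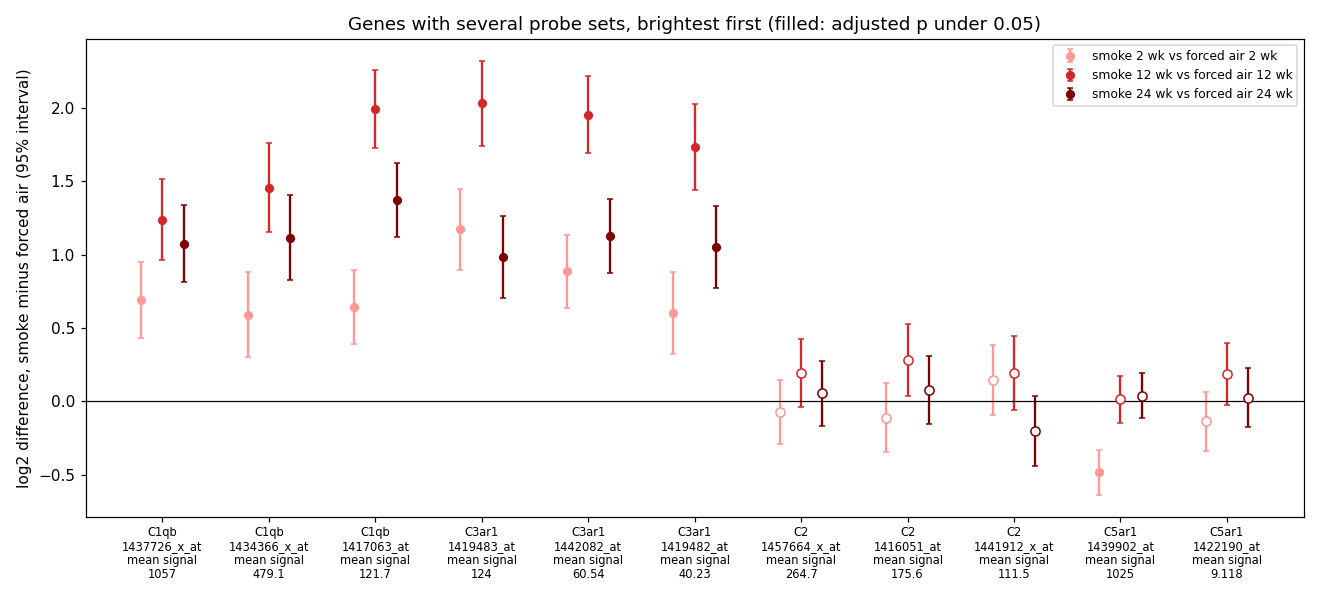
log2 difference between smoke and forced air with its 95% interval at 2, 12 and 24 weeks for each kept probe set of the 4 genes that have more than 1, brightest first. Filled points passed the test and open points did not. The probe sets of C1qb and C3ar1 are all above 0, those of C2 are all open, and the 2 of C5ar1 differ at 2 weeks.

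The signed smoke effect was compared between time points, each effect being taken against its own forced air group. From 2 to 12 weeks the difference of effects was called positive for 5 of the 7 genes, where 1.48% of all genes were called in that direction. For 4 of them a rise became larger, by 1.03 ± 0.17 (SE, adjusted p = 0.000239) for C1qc, 1.09 ± 0.24 (adjusted p = 0.00588) for Cfb, 0.86 ± 0.20 (adjusted p = 0.0106) for C3ar1 and 0.76 ± 0.21 (adjusted p = 0.0347) for C1qa. For C5ar1 the difference of 0.50 ± 0.11 (SE, adjusted p = 0.00684) lay between a fall at 2 weeks (-0.48) and a value near 0 at 12 weeks (0.01, not called). The call for C1qa was lost in 10 of the 23 refits without 1 array (adjusted p then 0.0539 to 0.0889), and also with a pseudocount of 1. These were the refits without replicates 1 or 3 of forced air and 1, 2 or 5 of smoke at 12 weeks, and without 1 or 4 of forced air and 2, 3 or 4 of smoke at 2 weeks.

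From 2 to 24 weeks the difference of effects was called positive for 3 genes, where 3.87% of all genes were. The rise became larger for C1qc, by 0.65 ± 0.17 (SE, adjusted p = 0.0162), and for Cfb, by 0.76 ± 0.23 (adjusted p = 0.0381). For C5ar1 the difference of 0.52 ± 0.11 (SE, adjusted p = 0.00354) again lay between the 2-week fall and a 24-week value near 0 (0.04, not called). With the 3′/5′ ratios as covariates neither C1qc (0.61, adjusted p = 0.0614) nor Cfb (0.80, adjusted p = 0.0732) was called. Without the 24-week forced air array at 1247 the C1qb increase was called too, at 0.53 (adjusted p = 0.0487). The Cfb call was lost in 13 of 24 refits without 1 array, with values of 0.70 to 0.77 and adjusted p-values of 0.0509 to 0.0843 in them. The arrays were replicates 1 to 4 of forced air and 2 to 4 of smoke at 2 weeks, and 2 to 5 of forced air and 1 and 6 of smoke at 24 weeks. From 12 to 24 weeks 1 gene had a smaller effect, C3ar1, by 1.05 on the log2 scale (-1.05 ± 0.20, SE, adjusted p = 0.0252), where 0.0266% of all genes, 4 in number, were called lower. That call was lost in 6 of 23 refits (without forced air replicate 1 or 2 or smoke replicate 5 at 12 weeks, or forced air replicate 4 or smoke replicate 2 or 6 at 24 weeks, adjusted p 0.0554 to 0.0713) and when only the compared groups were fitted (adjusted p = 0.0855). It was also lost with the 3′/5′ ratios as covariates (-0.71, adjusted p = 0.564) and without the 2 arrays with a Gapdh ratio of 2 or more (-0.96, adjusted p = 0.0834). The other 2 probe sets of C3ar1 gave -0.83 (adjusted p = 0.11) and -0.68 (adjusted p = 0.294).

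After 12 weeks of smoke and 12 weeks of air, the 5 genes were lower than after 24 weeks of smoke. In the cessation group on forced air Cfb ran from 126.7 over a median of 142.2 to 336.2, C1qc from 93.94 over 148.0 to 179.8 and C3ar1 from 74.01 over 106.3 to 148.1. In that on room air Cfb ran from 138.4 over 147.1 to 381.5, C1qc from 126.4 over 142.9 to 207.6 and C3ar1 from 103.2 over a mean of 132.4 to 190.3. All cessation arrays lay below all 24-week smoke arrays for C1qa, C1qb and C1qc in both groups and for Cfb on forced air, while for Cfb on room air and for C3ar1 in both groups 5 of 6 did. The share of all genes so separated was not counted. Relative to 24 weeks of smoke, 5 of 7 genes were called lower on forced air (7.45% of all genes) and 5 on room air (9.07%).

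The falls on forced air were -1.39 ± 0.16 (SE, adjusted p = 4.92e-09) for Cfb, -1.13 ± 0.12 (adjusted p = 2.69e-10) for C1qc and -1.04 ± 0.14 (adjusted p = 2.28e-07) for C1qa. They were -0.86 ± 0.13 (adjusted p = 1.78e-06) for C1qb and -0.81 ± 0.14 (adjusted p = 2.02e-05) for C3ar1. On room air the same genes had differences of -1.30, -1.05, -0.98, -0.78 and -0.56. C2 and C5ar1 had differences between -0.05 and 0.02 in these comparisons and were not called. The joint C4a/C4b probe set was not called lower either, at -0.19 (adjusted p = 0.319) on forced air and -0.15 (adjusted p = 0.409) on room air.

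**Figure D4:**
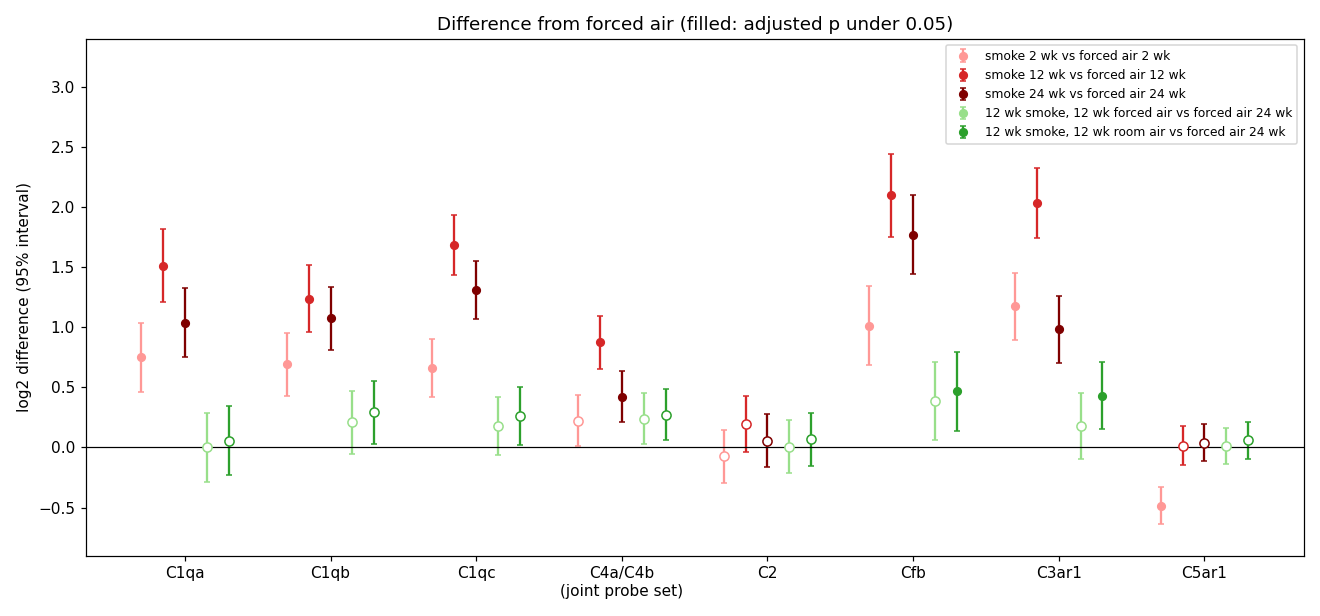
log2 difference from forced air of the same week with its 95% interval for the 7 genes and the joint C4a/C4b probe set, in smoke at 2, 12 and 24 weeks and in the cessation groups against forced air at 24 weeks. Filled points passed the test and open points did not. The 2 cessation groups share their control, and their filled points are Cfb (0.47) and C3ar1 (0.43) on room air.

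Against forced air at 24 weeks, the group that went from smoke to forced air had 0 of 7 genes called (1.98% of all genes in either direction), and at an unadjusted p under 0.05 the one such gene was Cfb, at 0.39 ± 0.16 (SE, adjusted p = 0.218). The group that went to room air had 2 genes called higher, where 9.81% of all genes were: Cfb at 0.47 ± 0.16 (SE, adjusted p = 0.0428) and C3ar1 at 0.43 ± 0.14 (SE, adjusted p = 0.0272). By the labels, this group differed from its control both in past smoke and in the air given. The series has no room air group without smoke, so the effects of smoke and of air cannot be told apart. For Cfb 3 of 6 room air arrays lay above all forced air arrays, and for C3ar1 4 of 6 did. Both calls rest on single arrays. Without room air replicate 4, which read 381.5 for Cfb and 190.3 for C3ar1, the differences were 0.26 (adjusted p = 0.256) for Cfb and 0.33 (adjusted p = 0.121) for C3ar1. The Cfb call was lost in 7 of 12 refits, those without room air replicates 1 or 4 or forced air replicates 2 to 6, and the C3ar1 call in 4 of 12, those without room air replicate 4 or forced air replicates 1, 3 or 6.

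C1qb and C1qc were not called on room air, with differences of 0.29 (adjusted p = 0.13) and 0.26 (adjusted p = 0.135), but replicate 4 of forced air at 24 weeks read highest of its group for C1qa (129.2), C1qb (1247), C1qc (179.9) and C3ar1 (114.3). Without it the room air differences were 0.44 (adjusted p = 0.00776) for C1qb and 0.37 (adjusted p = 0.0235) for C1qc. With the ranges of the sample title numbers as a block C1qc was called too, at 0.34 (adjusted p = 0.0299). The cessation groups had 0 of 7 genes called between them by limma (0.971% of all genes were), and 0 at an unadjusted p under 0.05. Their differences, room air minus forced air, ran from 0.05 to 0.25, and the 95% intervals reached from -0.25 to 0.53. What was left on forced air after cessation was less than the 12-week smoke effect for 5 of 7 genes, where 5.64% of all genes were called lower, by 1.03 (C1qb) to 1.85 (C3ar1) on the log2 scale (-1.029 and -1.854).

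The forced air procedure itself was set against untreated mice. At 2 weeks 1 of the 7 genes was called, C3ar1, at -0.44 ± 0.14 (SE, adjusted p = 0.0183), where 12.4% of all genes were called lower. Untreated mice ran from 46.76 over 74.82 to 83.51 for C3ar1, so that the groups overlapped, and 4 of 6 forced air arrays lay below all untreated ones. The call was lost without untreated replicate 5 (-0.39, adjusted p = 0.0527) and with the 3′/5′ ratios as covariates (-0.25, adjusted p = 0.22). The other probe sets of C3ar1 were not called, at -0.29 (1442082_at, adjusted p = 0.0994) and 0.06 (1419482_at, adjusted p = 0.808). Without untreated replicate 2, at 1174, C5ar1 was called higher at 0.21 (adjusted p = 0.0376). At 12 and 24 weeks 0 of 7 genes were called, where 5.74% and 14.1% of all genes were. At an unadjusted p under 0.05 C1qb was the only such gene at 12 weeks (-0.29, adjusted p = 0.208), and C1qb (-0.29, adjusted p = 0.129) and C3ar1 (0.35, adjusted p = 0.0818) were those at 24 weeks. Without the 24-week forced air array at 1247, C1qb was called lower at -0.44 (adjusted p = 0.0113). Refits without 1 array ran from -0.44 to -0.18 for this C1qb difference, and its dimmest probe set, 1417063_at, gave -0.06 (adjusted p = 0.802).

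In the order of group means, smoke at 12 weeks took the first place, smoke at 24 weeks the second and smoke at 2 weeks the third for C1qa, C1qb, C1qc and Cfb. For Cfb the step from 12 to 24 weeks (0.15 on the log2 scale) was under the larger SD of the groups and their ranges overlapped, while the step from 24 to 2 weeks (0.89) left a gap. For C3ar1 the cessation group on room air took the third place, at a mean of 132.4 ± 30.7 (SD, n = 6), before smoke at 2 weeks at 126.7 ± 15.6 (SD, n = 6), and these did not differ beyond their spread. Among untreated, forced air and cessation groups, no neighbouring step exceeded the larger SD for C1qa, C1qb, C1qc or Cfb, and 1 did for C3ar1, from forced air at 24 weeks to untreated (0.35). For C5ar1 the last place, smoke at 2 weeks, was 0.32 below untreated, the next group. For the joint C4a/C4b probe set, smoke at 24 weeks (755 ± 78.0, SD, n = 6), smoke at 12 weeks (695 ± 90.3, SD, n = 5) and both cessation groups (681 ± 84.1 on room air and 661 ± 63.8 on forced air, SD, n = 6 each) stood above all forced air and untreated groups, whose means were at most 563. The cessation ranges (557.9 to 803.1 on room air, 577.3 to 748.3 on forced air) overlapped forced air at 24 weeks (478.4 to 753.9). Neither cessation group was called against that control.

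Of 46 other complement genes 33 were tested, of which 3 were called higher and 1 lower at 2 weeks, 7 and 2 at 12 weeks and 9 and 2 at 24 weeks. Of all genes 5.39%, 12.5% and 11.1% were called higher and 3.70%, 10.5% and 6.67% lower. Their median log2 differences were 0.04, 0.07 and 0.04. The largest rises were those of Itgax (1.07, 1.56 and 1.53) and Itgb2 (0.83, 1.21 and 1.17), the subunits of a phagocyte receptor for cleaved C3. Among the classical pathway proteases C1s1 rose by 0.25 (adjusted p = 0.00189), 0.49 (adjusted p = 5.55e-09) and 0.21 (adjusted p = 0.00618) at 2, 12 and 24 weeks. C1ra rose by 0.74 at 12 weeks (adjusted p = 2.04e-08) and 0.29 at 24 weeks (adjusted p = 0.019), and had 0.25 at 2 weeks (adjusted p = 0.0646). Csmd1, a membrane protein with complement control domains, was higher by 0.63 at 24 weeks (adjusted p = 0.000134). Masp1, a protease of the lectin pathway, fell by 0.28, 0.47 and 0.29, and Vtn, which encodes vitronectin, an inhibitor of the terminal complex, fell by 0.29 at 12 and 0.23 at 24 weeks. Itgax and Itgb2 were still above forced air after cessation on forced air, by 0.46 (adjusted p = 0.00895) and 0.42 (adjusted p = 0.0135).

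Markers of monocytes and macrophages were higher in part in the smoke groups in which the 5 genes rose. Of the 7 tested markers of monocytes and interstitial macrophages 4 were higher at 2 weeks, 6 at 12 weeks and 6 at 24 weeks. Their summed signal in forced air ran from 782.7 to 1071 at 2 weeks, from 800.5 to 1153 at 12 weeks and from 860.6 to 1170 at 24 weeks. In smoke the same sum ran from 1614 to 2012, from 2478 to 3654 and from 2349 to 2946. After cessation it ran from 1031 to 1552 on forced air and from 1284 to 1980 on room air. Of 8 general leukocyte and macrophage markers 4, 5 and 6 were higher at the 3 time points, and their summed signal overlapped at 2 weeks, with 7295 to 9201 under forced air and 8747 to 9146 under smoke. It was 7265 to 9695 against 10160 to 10810 at 12 weeks and 6997 to 7657 against 9215 to 12330 at 24 weeks. Of 8 tested alveolar macrophage markers 3, 3 and 5 were higher. Of 7 neutrophil markers 1 was higher each time, beside 5.39%, 12.5% and 11.1% of all genes, with median log2 differences of -0.12, 0.29 and 0.18 (0.295 at 12 weeks). In cessation on room air against forced air, 4 of 7 neutrophil and 5 of 8 general markers were called higher (9.81% of all genes). So were 3 of 7 monocyte and 1 of 8 alveolar macrophage markers, and 0 in these lists were lower. The summed neutrophil signal was 3677 to 4006 on room air and 1778 to 3078 in forced air at 24 weeks. The part of these cells in the complement results was not tested.

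Hepatocyte markers, which would mark plasma-protein messages from liver, were at low signal. Of the 8 listed 3 passed the detection filter, with a summed signal of 19.46 to 66.34 over all arrays and log2 differences of -0.29 to 0.32 in the smoke comparisons. Of these, 0 were called at 2 and 12 weeks, and 1 was called lower at 24 weeks (6.67% of all genes). In cessation on room air 1 was called higher against forced air (9.81% of all genes) and 2 against 24 weeks of smoke. Of 6 tested markers of alveolar type 2 cells 0, 1 and 0 were higher.

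The genes most like each member, with the members themselves left out, were the 3 with the highest Pearson correlation of log2 values. The correlation was taken over the 53 arrays, which share groups and tissue. They were Cyba, Cd84 and Adgre1 for C1qc (0.95 each), Rilpl2, Ms4a6d and Ms4a7 for C1qa (0.92 to 0.93) and Grn, Ms4a6d and Mthfd2 for C1qb (0.90 to 0.91). For C3ar1 they were Ms4a7, Naip2 and Havcr2 (0.91 to 0.93), and for Cfb Steap4, Tnfrsf9 and Slc6a20a (0.95 to 0.96). Within groups the values for Cfb were 0.66 to 0.77, and those for the C1q chains 0.52 to 0.73. The closest genes to C2 (Tspyl2, 0.74) and C5ar1 (Sec16a, 0.71) were less close over all arrays, and had 0.72 and 0.71 within groups.

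The sample titles end in a number of unstated meaning, which was cut into 3 ranges with cuts chosen on these data. Within ranges that held both kinds of array, log2 smoke differences of the 5 genes were 0.56 to 1.22 at 2 weeks. They were 0.76 to 2.36 at 12 weeks and 0.89 to 1.85 at 24 weeks. Their direction was fixed in advance, since every smoke array lay above every forced air array of its week. Only the sizes are therefore given, and in some ranges 1 smoke array was set against 1 or 2 forced air arrays. For C5ar1 the 2-week differences within ranges were -0.46 and -0.37, a direction likewise fixed because every smoke array lay below every forced air array. With the 3′/5′ ratios as covariates the 2-week and 12-week calls for the 5 genes and the 2-week call for C5ar1 held. At 12 weeks the Gapdh ratios of smoke and forced air did not overlap, so that fit cannot tell RNA quality and smoke apart there.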

How the data were processed

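RNA of 53 mice was measured on 53 arrays, and per the labels' protocols 50 ng of it was amplified for each. The deposited signal intensity values come from MAS5, per the submitters' processing notes, are linear, and have no version stated in the sources used here. The authors' scaling to a 2% trimmed mean of 150 was checked on every array. MAS5 also gave the deposited detection p-value. Series table and sample tables held identical signals (largest difference 0).

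Values were analysed as log2(signal + 16). The filter kept 35615 of 45101 probe sets, those with a detection p below 0.05 in 50% or more of the arrays of some group. For a gene, the brightest kept probe set with 1 gene symbol was used, which gave 15030 genes. limma 3.58.1 in R 4.3.3 fitted all 53 arrays with 1 mean per group and a variance trend. Tests are two-sided, with Benjamini-Hochberg adjustment within each of 15 comparisons and calls at an adjusted p below 0.05. The joint C4a/C4b probe set has adjusted p-values over all kept probe sets. Folds are on the log2(signal + 16) scale and understate changes of dim genes. Arrays give no read depth, and their number limits the precision.

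Named genes were all members and, per smoke comparison, up to 3 called other complement genes with the largest rise and up to 3 with the largest fall. The 3 genes outside the member list most like each member were named too. The members and lists were chosen with earlier results of these data known. Promoter sequences are those of RefSeq (GRCm38.p6). The array has no build, so gene coordinates are not given. Tables and figures used pandas 2.3.3, numpy 2.4.6, matplotlib 3.10.9 and Python 3.11.15. The fit was tested on simulated data. Alternatives changed the normalization (quantile), the pseudocount (1), the detection filter (none), the groups fitted, the choice of probe set, the covariates (title numbers or their ranges, 3′/5′ ratios), the minimum log2 change (1) and the arrays left out.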

Additional observations from a re-analysis of the deposited data

Results flagged for a closer look

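On 72 combinations of gene (with the joint C4a/C4b probe set) and group, the array farthest from the rest stood apart from its group by Dixon's criterion in 10. For independent groups of normally spread values, chance alone sets about 1 in 20 apart. That rate does not apply directly here, because the genes share arrays and vary together. All 10 arrays that stood apart were the highest of their group. In the cessation groups 1 array each stood apart for Cfb, at 336.2 on forced air (replicate 2) and 381.5 on room air (replicate 4), and the latter array also for C1qc at 207.6. In forced air at 24 weeks replicate 4 stood apart for C1qa at 129.2, C1qb at 1247 and C1qc at 179.9. Among untreated mice replicate 2 stood apart for C1qb at 1353 and C2 at 386.5, and replicate 1 for Cfb at 170.2. In forced air at 2 weeks replicate 2 stood apart for C3ar1 at 65.07.

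The other results singled out are smoke effects that differed between time points, or between smoke and cessation, by a test of the difference itself in limma. Of 28 such tests on the 7 genes, pooled over unlike comparisons, 14 were called. Of all genes 1.48% were called higher for 12 against 2 weeks and 3.87% for 24 against 2 weeks. For 24 against 12 weeks 0.0266% were called lower, and 5.64% for what was left after cessation. Refits without 1 array lost the C1qa call at 12 against 2 weeks in 10 of 23. They lost the Cfb call at 24 against 2 weeks in 13 of 24, and the C3ar1 call at 24 against 12 weeks in 6 of 23. From 2 to 12 weeks the signed log2 effect differed by 0.76 for C1qa, 1.03 for C1qc, 1.09 for Cfb, 0.86 for C3ar1 and 0.50 for C5ar1. From 2 to 24 weeks it differed by 0.65 for C1qc, 0.76 for Cfb and 0.52 for C5ar1. For C5ar1 both differences lay between a fall of -0.48 at 2 weeks and later values near 0 that were not called. From 12 to 24 weeks the C3ar1 effect differed by -1.05. What was left after cessation on forced air differed from the 12-week effect by -1.51 for C1qa, -1.03 for C1qb, -1.51 for C1qc, -1.71 for Cfb and -1.85 for C3ar1. None of the causes was tested.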

How the results depend on the processing

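All 5 rises with smoke at each time point, the C5ar1 fall at 2 weeks and the 5 falls after cessation on either air kept their direction and their call under the 10 alternatives fitted without a minimum change and in every refit without 1 array. With an absolute log2 change of at least 1 also required, 2 genes were called in smoke at 2 weeks and 4 at 24 weeks. Against 24 weeks of smoke 3 were called in cessation on forced air and 2 in cessation on room air. For the smoke effect at 12 against 2 weeks 2 were called, and for that at 24 against 2 weeks 0. In cessation on room air against forced air, and in forced air at 2 weeks against untreated, 0 were called. The share of all genes called with this minimum, under the other alternatives or in the refits was not counted. How unusual these counts are therefore cannot be judged. In cessation on room air against forced air 1 gene was called without the detection filter and 1 when only the compared groups were fitted, in both cases because Cfb was lost. For the smoke effect at 24 against 12 weeks 0 were called when only the compared groups were fitted, with the 3′/5′ ratios in the model, and without the 2 arrays with a Gapdh ratio of 2 or more. With these covariates 0 were called in forced air at 2 weeks against untreated and 1 for the effect at 24 against 2 weeks. The causes were not tested.

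In refits without 1 array, the number of genes called ran from 0 to 3 in cessation on room air against forced air, from 0 to 1 for the effect at 24 against 12 weeks, from 4 to 5 for that at 12 against 2 weeks, from 2 to 3 for that at 24 against 2 weeks, from 5 to 6 in smoke at 12 weeks, from 0 to 2 in forced air at 2 weeks and from 0 to 1 in forced air at 24 weeks against untreated.

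Signs changed only for results that were not called, in 26 values under the alternatives. With quantile normalization the values became -0.016 for C1qa and -0.014 for C2 in cessation on forced air against forced air, 0.006 for C2 in forced air at 2 weeks against untreated and -0.024 for C5ar1 for the smoke effect at 24 against 12 weeks. With the probe set of largest spread per gene they were 0.004 for C2 in cessation on forced air against smoke, -0.012 for C2 in cessation on room air against smoke, -0.017 for C2 between the cessation groups and 0.122 for C1qb and 0.194 for C2 in forced air at 2 weeks against untreated. With the title number as a covariate they were -0.002 for C2 and -0.006 for C5ar1 in cessation on forced air against forced air, -0.03 for Cfb in forced air at 24 weeks against untreated and -0.001 for C5ar1 for the smoke effect at 24 against 12 weeks. With its ranges as a block they were -0.005 for C5ar1 in smoke at 12 weeks, -0.021 for C5ar1 in smoke at 24 weeks, -0.009 for C2 and -0.026 for C5ar1 in cessation on forced air against forced air, -0.051 for Cfb in forced air at 24 weeks against untreated and -0.016 for C5ar1 for the smoke effect at 24 against 12 weeks. With the 3′/5′ ratios as covariates they were 0.003 for C2 in smoke at 2 weeks, -0.003 for C1qa in cessation on forced air against forced air, 0.041 for C2 in forced air at 2 weeks against untreated, 0.03 for C3ar1 and -0.048 for C5ar1 in forced air at 12 weeks against untreated, 0.067 for C3ar1 for the smoke effect at 24 against 2 weeks and -0.128 for C5ar1 for the smoke effect at 24 against 12 weeks. In 22 results, none of them called, the sign also changed in some refit without 1 array. For C1qa these ran from -0.044 to 0.133 in forced air at 24 weeks against untreated, from -0.064 to 0.119 in cessation on forced air against forced air, from -0.004 to 0.174 in cessation on room air against forced air and from -0.01 to 0.148 between the cessation groups. For C1qb these ran from -0.008 to 0.164 between the cessation groups. For C1qc these ran from -0.116 to 0.024 in forced air at 12 weeks against untreated, from -0.177 to 0.003 in forced air at 24 weeks against untreated and from -0.011 to 0.155 between the cessation groups. For C2 these ran from -0.22 to 0.035 in forced air at 12 weeks against untreated, from -0.077 to 0.094 in forced air at 2 weeks against untreated, from -0.027 to 0.053 in cessation on room air against smoke and from -0.053 to 0.047 in cessation on forced air against forced air. For C5ar1 these ran from -0.018 to 0.058 in smoke at 12 weeks, from -0.008 to 0.085 in forced air at 12 weeks against untreated, from -0.022 to 0.074 for the smoke effect at 24 against 12 weeks, from -0.048 to 0.038 for the effect left after cessation, from -0.008 to 0.088 in smoke at 24 weeks, from -0.076 to 0.019 in cessation on forced air against smoke, from -0.029 to 0.067 in cessation on room air against smoke and from -0.034 to 0.052 in cessation on forced air against forced air. For Cfb these ran from -0.011 to 0.13 in forced air at 24 weeks against untreated and from -0.131 to 0.278 between the cessation groups. No paired analysis was possible because the labels carry no replicate numbers shared between groups, and replicates were numbered in accession order. The added 16 shrinks the differences of dim probe sets, such as C3ar1 in forced air and the second of C5ar1.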
